A study of Mus musculus with 4 samples.

Results

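Heat shock proteins and chaperones are described here as 93 mouse genes, measured by 97 of the 33793 probe sets of a hippocampal microarray study. They were taken by gene symbol: the small heat shock proteins and the HSP60, HSP70, HSP90 and HSP110 families, the heat shock factors Hsf1 to Hsf5, the numbered DnaJ co-chaperones of classes A, B and C, the BAG co-chaperones Bag1 to Bag6, and the subunits of the cytosolic chaperonin TRiC. A gene with several probe sets (Dnaja3, Hspa12a and Tcp1) was represented by the one with the highest mean. The name pattern also took in Hspbp1, a nucleotide exchange factor of HSP70, Hspbap1, named for binding the HSPB1 protein, and Hspb11, which encodes an intraflagellar transport subunit rather than a small heat shock protein. No gene of the 93 differed between the genotypes as labelled once p-values were adjusted over the whole array, and none by 1.5-fold. Of the 9 stress-inducible genes, 8 averaged slightly higher in the arrays labelled IPMK cKO, beside 48.4% of all probe sets. Hspa1b led them at 0.44 on the log2 scale (SE 0.15). The positive differences of Hsph1, Hsp90aa1 and Dnaja1 turned negative with 1 array left out. The constitutive genes were split, with 8 of 17 higher, but 7 of the 9 lower ones were TRiC subunits.

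The study asked what the loss of inositol polyphosphate multikinase (IPMK) does to the hippocampal transcriptome of behaviourally naive mice. Right hippocampi of male mice were taken at postnatal day 90, and their RNA was hybridised to 4 arrays, 1 mouse each, although the study's text gives larger numbers of mice or samples per group in places. The genotypes compared were IPMK cKO mice, which carry Ipmk f/f together with CaMKII-Cre (2 arrays), and their IPMK WT littermates, which carry Ipmk f/f without Cre (2 arrays). CaMKII-Cre acts in excitatory forebrain neurons, so interneurons, glia and vessels of a cKO hippocampus keep Ipmk, and in whole tissue fewer cells of a type cannot be told apart from less RNA per cell.

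Chaperones bind unfolded proteins and help them fold, assemble or reach degradation. HSP70 proteins cycle between ATP and ADP under the control of DnaJ proteins, which deliver clients, and of exchange factors such as the BAG and HSP110 proteins, and they hand many clients on to HSP90 or to the TRiC ring. Some of these genes, here called inducible, are known to be switched on by heat shock factor 1 (HSF1) when unfolded proteins accumulate, whereas others, here called constitutive, are made steadily in most cells; in neurons, where proteins are carried far from the cell body, the constitutive chaperones are known to be abundant.

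Values are RMA log2 values, background-subtracted and normalized by the authors to a common distribution over the arrays, so a difference of 1 is 2-fold. Differences were tested with limma, which steadies the variance of each probe set with that of all others, and p-values were adjusted over all probe sets by Benjamini-Hochberg. The labels were checked on Ipmk itself. Its probe set had log2 values of 8.44 and 8.78 in the arrays labelled IPMK cKO, here called cKO-labelled, against 7.68 and 7.71 in the arrays labelled IPMK WT, here called WT-labelled, a difference of 0.92 (SE 0.15) that runs against the labels. A further Ipmk probe set had 6.97 and 6.43 in the cKO-labelled arrays and 5.78 and 5.52 in the WT-labelled arrays. Syt2, a synaptic gene that the study followed up in its cKO mice, was higher in the cKO-labelled arrays by 1.39 (SE 0.21). Whether the Ipmk probes lie in the floxed part is not given in the sources used here, and neither gene settles whether labels were exchanged, so all directions below are those of the labels. Array medians lay between 5.10 and 5.15. Over all probe sets, limma gave 0 at an adjusted p under 0.05 (0%) and 966 at an unadjusted p under 0.05 (2.86%). No exact permutation test of 2 arrays against 2 can go below p = 0.333, so precision is set by how few arrays there are.

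HSF1 binds the heat shock element, an array of GAA units that alternate in direction with 2 free bases between them. The stretches shown are the 250 bases before the RefSeq start of Hspa1a, Hspa1b and Hspe1. Hspa1a and Hspa1b are the major stress-inducible HSP70 genes, and the start of Hspe1 lies close to those of Hspd1. The stretches were chosen for the inducible gene with the largest difference between the labels, its near copy and the longest run of exact units in a member. They come from RefSeq (GRCm38.p6), run 5′ to 3′ on the strand of the gene, and lie at chr17:34972157-34972406 (minus strand), chr17:34959239-34959488 (minus strand) and chr1:55087898-55088147 (plus strand). Capitals mark the longest run of exact alternating GAA and TTC units. Units with a changed base were not searched for, here or in the counts below.
Hspa1a: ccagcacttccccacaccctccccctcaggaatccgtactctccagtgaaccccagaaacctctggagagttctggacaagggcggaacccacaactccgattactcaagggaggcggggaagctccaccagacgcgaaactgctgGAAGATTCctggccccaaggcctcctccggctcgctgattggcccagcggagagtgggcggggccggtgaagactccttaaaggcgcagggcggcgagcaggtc
Hspa1b: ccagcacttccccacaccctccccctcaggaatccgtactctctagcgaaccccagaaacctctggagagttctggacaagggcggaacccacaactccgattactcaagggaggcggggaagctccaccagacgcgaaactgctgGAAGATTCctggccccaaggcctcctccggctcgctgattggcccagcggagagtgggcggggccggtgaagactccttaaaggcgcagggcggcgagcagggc
Hspe1: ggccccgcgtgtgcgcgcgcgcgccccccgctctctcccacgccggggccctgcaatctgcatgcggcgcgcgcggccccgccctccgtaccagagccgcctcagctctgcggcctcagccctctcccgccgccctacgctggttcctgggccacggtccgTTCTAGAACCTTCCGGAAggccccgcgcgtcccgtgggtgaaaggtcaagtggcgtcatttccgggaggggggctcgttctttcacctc

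The Hspa1a and Hspa1b stretches differ at 3 of the 250 positions. Each holds 1 exact pair of units, GAAGATTC, with its first base 104 bases before the start. The Hspe1 stretch holds 4 units in a row, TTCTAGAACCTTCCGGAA, at chr1:55088059-55088076. Read on the other strand, the same bases lie 144 bases before a start of Hspd1, and the 2 genes overlap head to head by 96 bases in the RefSeq table. Hspe1 encodes HSP10 and Hspd1 HSP60, the lid and the barrel of the mitochondrial chaperonin.

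A window of 300 bases around the start (250 before and 50 after) was at hand for 76 of the 93 genes. A pair of units, GAANNTTC or TTCNNGAA (which are found on either strand alike, since each motif is its own reverse complement), was in a window of 21 of these 76 genes (27.6%), against 17% of all 27025 genes with a window. Among inducible genes the pair was in 7 of 8 (87.5%), Dnajb1 being the exception, and among constitutive genes in 4 of 13 (30.8%). Runs of at least 3 units were in the windows of Hspe1, Hspd1, Hsph1 and Dnajb6, 5.26% of the genes with a window against 0.662% of all genes. A match of letters is a description and not a measured binding site.

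Of the 93 genes, 0 passed limma at an adjusted p under 0.05 (lowest adjusted p 0.99993). At an unadjusted p under 0.05 in limma there was 1, Hspa1b, beside 2.86% of all probe sets. None differed by 1.5-fold or more, which 0.63% of all probe sets did. The median difference between the labels was 0.01 on the log2 scale, with 52 genes higher and 41 lower in the cKO-labelled arrays, beside a median of -0.0046 over all probe sets. For 87 of the 93 genes the 95% confidence interval of the difference lay within 1.5-fold in either direction. In 23 genes (24.7%) both arrays of one label lay on the same side of both arrays of the other, a share near the 27.2% of all probe sets. Of the 23, 18 were higher in the cKO-labelled arrays and 5 lower, where 12.4% of all probe sets were apart and higher and 14.8% apart and lower.

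**Figure D1:**
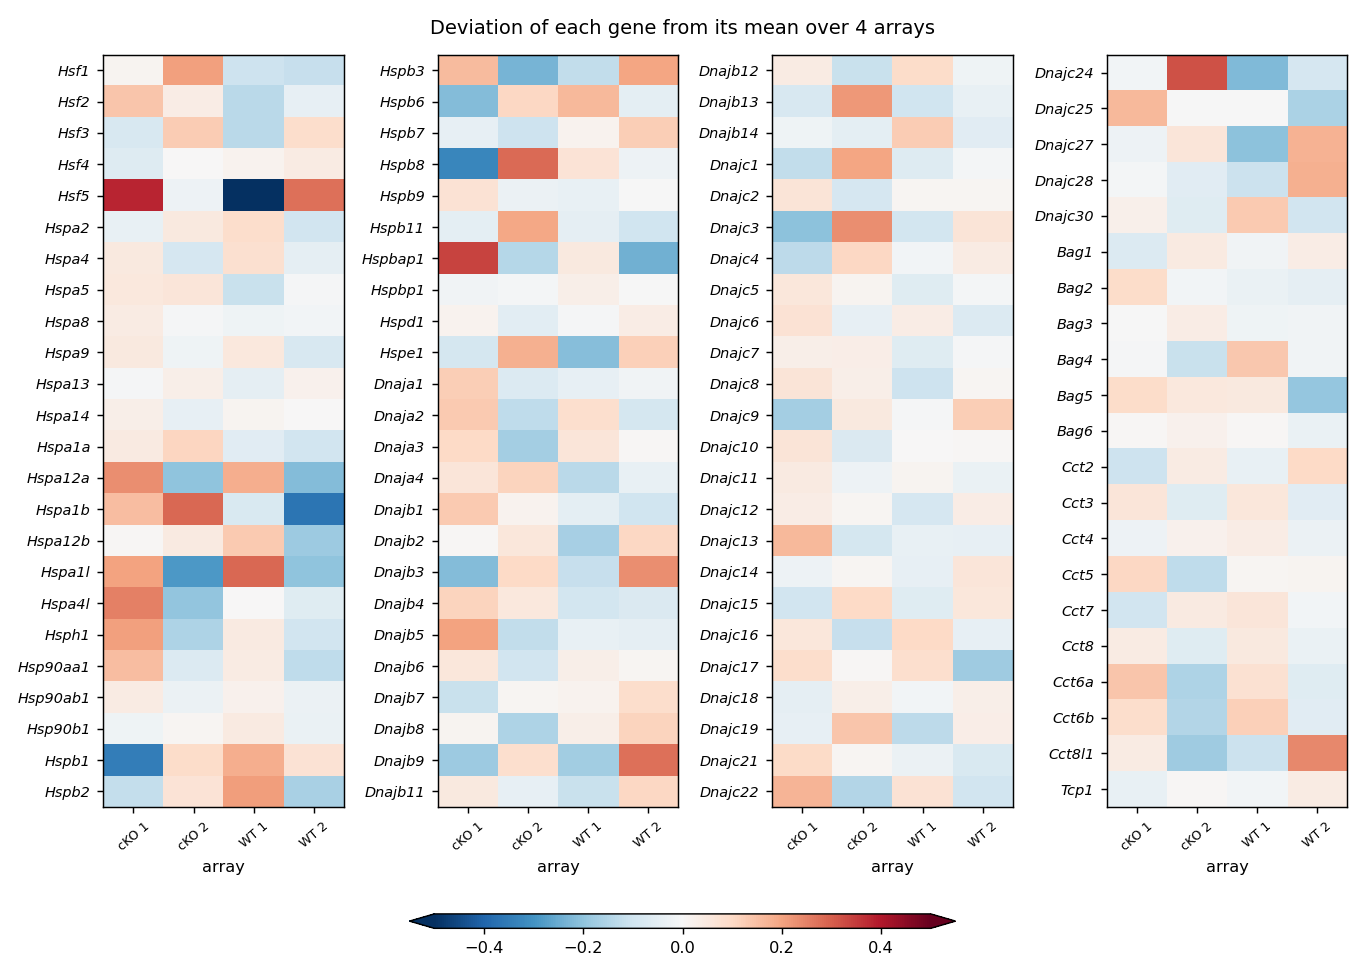
Deviation of each of the 93 genes from its own mean over the 4 arrays (colour, log2 scale, colours ending at -0.5 and 0.5), with the cKO-labelled arrays left of the WT-labelled arrays and genes in order of family. Most rows are pale, the deepest colours being those of Hsf5, and 35 genes had their highest value in cKO-labelled replicate 1.

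The inducible list held 9 genes: Hspa1a, Hspa1b, Hspb1, Hsph1, Hsp90aa1, Dnaja1, Dnajb1, Dnajb4 and Bag3. Of them, 8 averaged higher in the cKO-labelled arrays and 1, Hspb1, lower, where 48.4% of all probe sets averaged higher. In 5 of the 9 the cKO-labelled arrays both lay above the WT-labelled arrays, beside 12.4% of all probe sets. The median difference of the list was 0.09 (range -0.25 to 0.44), and 0 of its genes passed an adjusted p under 0.05.

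Hspa1b, measured by 10 probes marked as unique (chromosome 17, 34956429 to 34959238; genome build not named in the annotation), read 6.29 and 6.42 in the cKO-labelled arrays and 6.06 and 5.77 in the WT-labelled arrays. The labels were separated by a gap of 0.23, wider than the 0.13 between the cKO-labelled arrays and narrower than the 0.29 between the WT-labelled arrays. Its log2 difference of 0.44 (SE 0.15, 95% confidence interval 0.07 to 0.81) had an unadjusted p of 0.0267 and an adjusted p of 0.99993 in limma, in a comparison where 0.979% of all probe sets were higher at that unadjusted threshold and 1.88% lower. Without WT-labelled replicate 2 the difference was 0.30 with an unadjusted limma p of 0.161, and without cKO-labelled replicate 2 it was 0.38 with an unadjusted limma p of 0.104. The unadjusted p was 0.059 by the local pooled error (LPE) test of the methods and 0.108 by a test of averages (both fitted over all probe sets, on the same arrays).

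Hspa1a, which encodes a nearly identical HSP70 protein and lies 10120 bases from Hspa1b, read 5.96 and 6.02 in the cKO-labelled arrays, against 5.86 and 5.82 in the WT-labelled arrays. The labels did not overlap, and the difference was 0.15 (SE 0.12). The annotation marks both probe sets as unique, but the copies are so alike that their signals may not be fully separate.

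Of the inducible DnaJ genes, Dnajb1 and Dnajb4 were apart and higher in the cKO-labelled arrays. Dnajb1, the main heat-induced DnaJ protein, had 6.99 and 6.88 in the cKO-labelled arrays and 6.81 and 6.76 in the WT-labelled arrays. Dnajb4, its close relative, had 5.99 and 5.93 in the cKO-labelled arrays and 5.79 and 5.81 in the WT-labelled arrays. Neither gene overlapped between labels, with differences of 0.15 (SE 0.12) and 0.16 (SE 0.12). Bag3, which links HSP70 and small heat shock proteins to autophagy, read 7.14 and 7.18 in the cKO-labelled arrays, against 7.12 and 7.12 in the WT-labelled arrays, apart by 0.02 only.

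Of the remaining inducible genes, 3 averaged higher with labels that overlapped. Hsph1, an HSP110 exchange factor, read 9.15 and 8.79 in the cKO-labelled arrays and 8.995 and 8.86 in the WT-labelled arrays. Hsp90aa1, the inducible cytosolic HSP90, read 8.28 and 8.06 in the cKO-labelled arrays and 8.17 and 8.001 in the WT-labelled arrays. In both, replicate 1 lay above replicate 2 within each label. Dnaja1, a class A partner of HSP70, read 7.70 and 7.51 in the cKO-labelled arrays, against 7.53 and 7.56 in the WT-labelled arrays. Without cKO-labelled replicate 1, these 3 differences turned negative (-0.13, -0.03 and -0.04 in that order). The positive sign of Hsp90aa1 and Dnaja1 thus rested on that array. That of Hsph1 was also lost without WT-labelled replicate 2, since its cKO-labelled mean of 8.97 lay below WT-labelled replicate 1.

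Hspb1 (known as HSP27 in humans), a small heat shock protein that holds unfolded proteins without ATP, was the inducible gene that averaged lower. It read 4.82 and 5.26 in the cKO-labelled arrays, against 5.35 and 5.24 in the WT-labelled arrays. The difference of -0.25 (SE 0.18) rested on cKO-labelled replicate 1, which lay apart from the other 3 arrays: it was -0.04 without that array and -0.47 without cKO-labelled replicate 2.

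**Figure D2:**
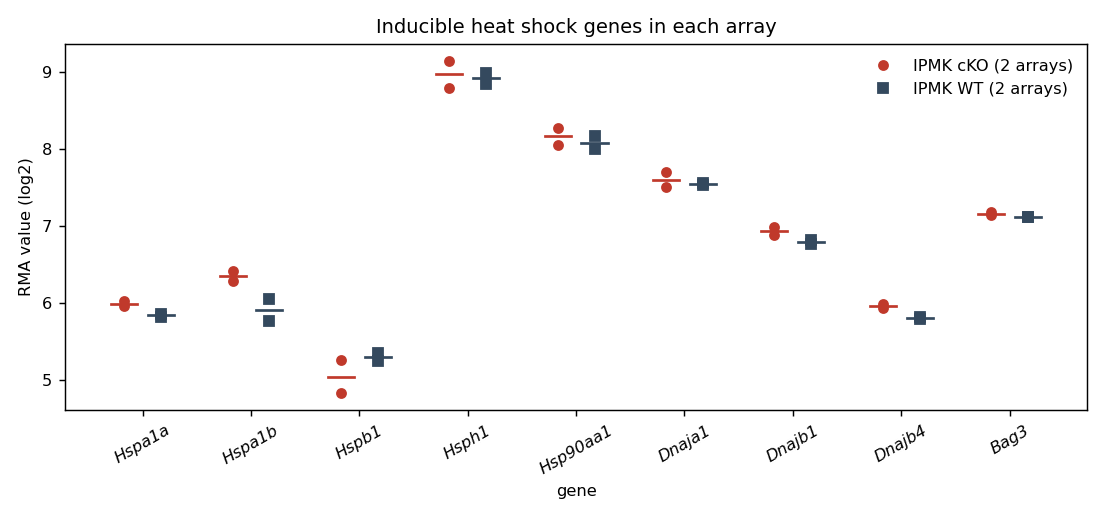
RMA value (log2) of the 9 inducible genes in each array, circles for the 2 cKO-labelled arrays and squares for the 2 labelled IPMK WT, with bars at the mean of each pair. The labels are apart in Hspa1a, Hspa1b, Dnajb1, Dnajb4 and Bag3, and Hspb1 shows 1 low array labelled IPMK cKO at 4.82.

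The constitutive list held 17 genes: the HSP70 and HSP110 genes Hspa8 and Hspa4, Hsp90ab1, Dnaja2, Dnajb2, Dnajb6, Dnajc5, Dnajc7, Bag6 and the 8 TRiC subunits. Of the 17, 8 averaged higher and 9 lower in the cKO-labelled arrays, with a median difference of -0.0056 (range -0.06 to 0.07). The split followed the make-up of the list, since TRiC subunits were 7 of the 9 lower genes and 1 of the 8 higher. Outside TRiC only Hspa4 and Dnajb6 averaged lower. In 4 of the 17 the labels were apart and higher and in 0 apart and lower, beside 12.4% and 14.8% of all probe sets. Hspa8, the constitutive HSC70 that uncoats clathrin vesicles at synapses, read 11.44 and 11.40 in the cKO-labelled arrays and 11.38 and 11.39 in the WT-labelled arrays, apart by less than 0.01. Hsp90ab1, the constitutive HSP90, read 9.94 and 9.87 in the cKO-labelled arrays and 9.92 and 9.87 in the WT-labelled arrays, which overlapped. The 95% confidence intervals of these log2 differences were -0.25 to 0.33 for Hspa8 and -0.28 to 0.31 for Hsp90ab1.

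Inducible and constitutive genes were then set side by side within each array, as the median over genes of the deviation from the gene's mean over the 4 arrays. The inducible median was 0.12 and 0.04 in the cKO-labelled arrays, against -0.04 and -0.09 in the WT-labelled arrays. The constitutive median was 0.04 and -0.0046 in the cKO-labelled arrays, against 0.02 and -0.01 in the WT-labelled arrays. Inducible minus constitutive was thus 0.08 and 0.04 in the cKO-labelled arrays and -0.06 and -0.08 in the WT-labelled arrays. The labels did not overlap on this measure, and their means differed by 0.13, with a pooled SD of 0.02 within labels.

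By count, 8 and 6 of the 9 inducible genes were above their own mean in the cKO-labelled arrays, against 3 and 1 in the WT-labelled arrays. Of the 17 constitutive genes, 13 and 8 were above their own mean in the cKO-labelled arrays and 11 and 5 in the WT-labelled arrays. The size of the difference depended on 1 array, being 0.07 without cKO-labelled replicate 1, and it was 0.11 without Hspa1b. The score has no p, because its genes are not replicates of a condition and share their 4 arrays. Its gene lists were chosen with earlier results of these data known.

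**Figure D3:**
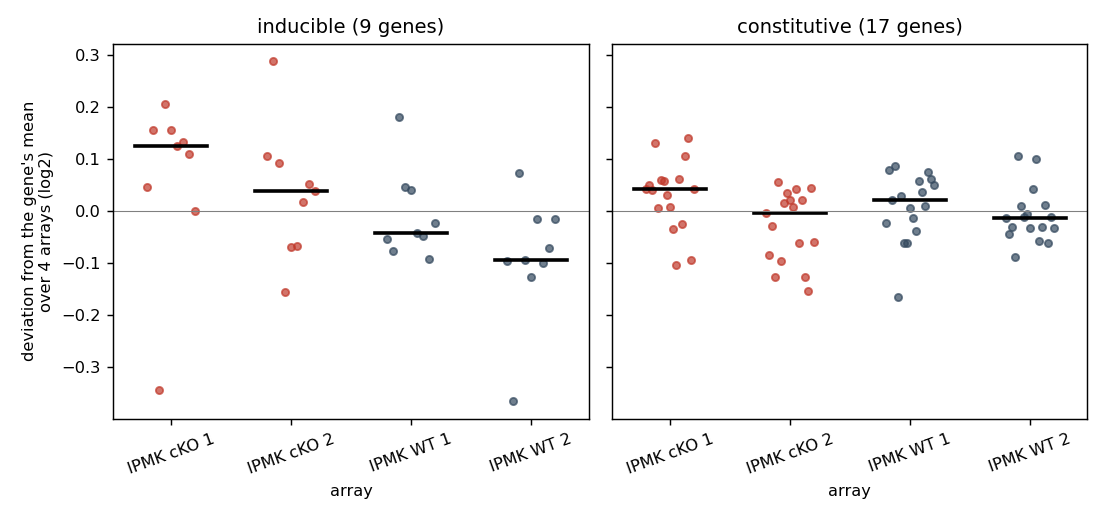
Deviation of each gene from its mean over the 4 arrays (log2), by array, for the 9 inducible genes (left) and the 17 constitutive genes (right), with points for genes and black bars for medians. The inducible medians are 0.12 and 0.04 in the cKO-labelled arrays and -0.04 and -0.09 in the WT-labelled arrays, while the constitutive medians stay between -0.01 and 0.04.

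Immediate early genes, which neurons transcribe within minutes of firing, are known to respond to activity and handling. They averaged higher in the cKO-labelled arrays in 16 of 19 measured, beside 48.4% of all probe sets, with a median difference of 0.18. In limma 1, Cyr61, had an unadjusted p under 0.05, beside 2.86% of all probe sets, and none an adjusted one. Their median deviation was 0.21 and -0.02 in the cKO-labelled arrays, against -0.21 and 0.0031 in the WT-labelled arrays. The labels overlapped on this median, unlike in the inducible list. By gene, 6 of the 19 were apart and higher and 0 apart and lower, beside 12.4% and 14.8% of all probe sets. Fos read 6.29 and 6.01 in the cKO-labelled arrays and 5.19 and 5.95 in the WT-labelled arrays, apart by 0.06. Its WT-labelled arrays differed from each other by more than the labels did on average. The summed level of the list lay between 11.89 and 12.11 (log2) in the cKO-labelled arrays and between 11.68 and 11.90 in the WT-labelled arrays. Their part in the values of the inducible chaperones was not tested.

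Heat shock factors are the transcription factors of the response. Hsf1, its main activator, read 7.81 and 8.002 in the cKO-labelled arrays and 7.69 and 7.68 in the WT-labelled arrays, a difference of 0.22 (SE 0.13, unadjusted p = 0.146 in limma). Hsf2, which can pair with HSF1, read 6.62 and 6.52 in the cKO-labelled arrays and 6.35 and 6.44 in the WT-labelled arrays, a difference of 0.17 (SE 0.12). In both genes the labels were apart. Of the 5 factors, 2 were apart and higher and 1 apart and lower, beside 12.4% and 14.8% of all probe sets. Hsf4, known for its role in the lens, lay the other way by a small step, with 6.29 and 6.36 in the cKO-labelled arrays against 6.37 and 6.40 in the WT-labelled arrays. Hsf5, known from the testis, had the widest range of all 93 genes, with 4.99 and 4.58 in the cKO-labelled arrays and 3.98 and 4.88 in the WT-labelled arrays. Its difference of 0.35 (SE 0.32) rested on the low WT-labelled replicate 1 and was -0.10 without it and 0.80 without WT-labelled replicate 2. Hsf3 averaged 2.32 over the arrays, near the low end of the scale, with a difference of 0.05.

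The 7 small heat shock proteins were uneven between the cKO-labelled arrays. Their median spread was 0.32 between the cKO-labelled arrays and 0.11 between the WT-labelled arrays, where all probe sets had 0.17 and 0.15 (medians of the difference between the 2 arrays of a label). Of the 7, 6 averaged lower in the cKO-labelled arrays, with a median difference of -0.08. Hspb8, which works with BAG3, read 6.54 and 7.16 in the cKO-labelled arrays, on both sides of the 6.94 and 6.85 in the WT-labelled arrays. Hspb6, known from muscle, also spread widely, with 7.31 and 7.63 in the cKO-labelled arrays against 7.69 and 7.48 in the WT-labelled arrays. Hspb7, known from the heart, read 5.03 and 4.97 in the cKO-labelled arrays against 5.09 and 5.20 in the WT-labelled arrays. It was the 1 gene of the 7 whose labels did not overlap, beside 27.2% of all probe sets.

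Several markers of cells other than neurons differed between replicates in the same array pairs. The median deviation of 10 astrocyte markers was -0.20 and 0.26 in the cKO-labelled arrays and -0.27 and 0.19 in the WT-labelled arrays, and that of 11 microglial markers -0.28 and 0.22 in the cKO-labelled arrays and -0.19 and 0.21 in the WT-labelled arrays. Excitatory neuron markers (12 genes) ran the other way, with 0.11 and -0.14 in the cKO-labelled arrays and 0.07 and -0.06 in the WT-labelled arrays. The summed level of the 12 excitatory markers lay at 13.36 to 13.56 (log2) in the cKO-labelled arrays and 13.47 to 13.49 in the WT-labelled arrays, so the tissue carried the markers of hippocampal neurons throughout. Choroid plexus and ependymal markers were low in 1 array, with median deviations of -0.49 and 0.17 in the cKO-labelled arrays against 0.23 and 0.01 in the WT-labelled arrays. The low array, cKO-labelled replicate 1, was also the one low in Hspb1, Hspb8 and Hspb6. The other small heat shock proteins (Hspb2, Hspb3, Hspb7 and Hspb9) were lowest in other arrays, and Hspb9 was highest in that array, at 5.38. Endothelial markers (10 genes) deviated by -0.09 and -0.02 in the cKO-labelled arrays and by 0.12 and -0.03 in the WT-labelled arrays, and 4 of the 10 were apart and lower in the cKO-labelled arrays, beside 14.8% of all probe sets. The part of these cells in the values of the small heat shock proteins was not tested.

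Some HSP70 relatives varied more within the labels than between them. Hspa12a, an atypical HSP70 found in neurons, read 8.72 and 8.29 in the cKO-labelled arrays and 8.67 and 8.27 in the WT-labelled arrays. Hspa1l, known from the testis and next to Hspa1a in the genome, read 4.28 and 3.80 in the cKO-labelled arrays and 4.37 and 3.88 in the WT-labelled arrays. At these 2 probe sets the 2 arrays of each label differed by 0.40 to 0.49, while the labels differed by 0.03 and -0.09. A further Hspa12a probe set, of lower mean, did not show this spread. It read 6.569 and 6.555 in the cKO-labelled arrays against 6.467 and 6.526 in the WT-labelled arrays, with the labels apart. Hspa4l, an HSP110 relative, read 8.63 and 8.18 in the cKO-labelled arrays, against 8.38 and 8.31 in the WT-labelled arrays.

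The endoplasmic reticulum (ER) has its own chaperones, which the unfolded protein response controls in place of HSF1. Of its 11 genes here, 6 averaged higher and 5 lower, with a median difference of 0.0093. Hspa5 (BiP), the ER HSP70 and sensor of that response, read 8.06 and 8.07 in the cKO-labelled arrays and 7.90 and 8.003 in the WT-labelled arrays (difference 0.12, SE 0.12). It was the 1 gene of the 11 whose labels were apart, beside 27.2% of all probe sets. Hsp90b1 (GRP94), the ER HSP90, read 10.16 and 10.20 in the cKO-labelled arrays and 10.23 and 10.15 in the WT-labelled arrays. The ER DnaJ genes Dnajc3 and Dnajb9, both targets of the response, had the widest ranges of the group. Dnajc3 read 8.03 and 8.47 in the cKO-labelled arrays and 8.14 and 8.30 in the WT-labelled arrays, and Dnajb9 read 7.99 and 8.25 in the cKO-labelled arrays and 7.99 and 8.44 in the WT-labelled arrays. In both genes the arrays of each label differed by more than the labels did. Dnajc25, an ER membrane DnaJ protein, had 5.35 and 5.18 in the cKO-labelled arrays and 5.18 and 5.03 in the WT-labelled arrays.

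In mitochondria, 5 of 9 genes averaged higher and 4 lower in the cKO-labelled arrays, none with its labels apart, beside 27.2% of all probe sets. Hspa9 (mortalin), the HSP70 of the import motor, read 10.08 and 10.01 in the cKO-labelled arrays against 10.08 and 9.95 in the WT-labelled arrays. Dnajc19, a DnaJ protein of the inner membrane, read 6.45 and 6.63 in the cKO-labelled arrays and 6.36 and 6.52 in the WT-labelled arrays. Hspd1 and Hspe1, each with a start near the 4-unit element shown above, had unlike patterns over the arrays. Hspe1 read 6.98 and 7.24 in the cKO-labelled arrays and 6.85 and 7.19 in the WT-labelled arrays, whereas Hspd1 read 7.94 and 7.87 in the cKO-labelled arrays and 7.92 and 7.96 in the WT-labelled arrays.

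TRiC folds actin and tubulin in a ring of 8 different subunits. Of the 8, 7 averaged lower and 1 higher in the cKO-labelled arrays, but the differences were small (-0.06 to 0.0007, median -0.02). In none were the labels apart, beside 27.2% of all probe sets. Cct2 had the lowest of them, with 9.72 and 9.86 in the cKO-labelled arrays against 9.78 and 9.92 in the WT-labelled arrays. The subunits thus kept within 0.06 of their level in the WT-labelled arrays. The median of the absolute difference was 0.02 for TRiC, 0.04 for the mitochondrial genes, 0.07 for the ER genes and 0.09 for all probe sets. The median RMA value of TRiC was 8.63, where all probe sets had 5.13, and the part of that higher value was not tested. Cct6b and Cct8l1, outside the common ring, averaged 4.10 and 3.37 over the arrays, and both averaged lower in the cKO-labelled arrays.

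Of the 43 DnaJ genes, 26 averaged higher and 17 lower in the cKO-labelled arrays, with 8 apart and higher and 2 apart and lower. These 10 (23.3%) were a share near the 27.2% of all probe sets that were apart. Dnajc24, a DnaJ protein that acts in the synthesis of diphthamide on elongation factor 2, had the largest difference of the family, with 6.03 and 6.36 in the cKO-labelled arrays and 5.82 and 5.96 in the WT-labelled arrays (0.31, SE 0.16, unadjusted p = 0.103 in limma). The labels were apart by 0.07, less than the spread within either label. Dnaja4, a class A DnaJ gene, read 7.13 and 7.17 in the cKO-labelled arrays and 6.93 and 7.03 in the WT-labelled arrays, a gap of 0.10. Dnajb8, known from the testis, was apart the other way, with 5.17 and 5.0 in the cKO-labelled arrays against 5.19 and 5.26 in the WT-labelled arrays.

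Synapses use DnaJ proteins of their own, since vesicles must be fused and uncoated again and again. Dnajc5 (cysteine string protein alpha), which keeps SNARE proteins folded on synaptic vesicles, read 9.21 and 9.17 in the cKO-labelled arrays and 9.09 and 9.14 in the WT-labelled arrays. The labels were apart by 0.03, and the difference was 0.07 (SE 0.12, 95% confidence interval -0.22 to 0.36). Dnajc6 (auxilin), which recruits HSC70 to clathrin coats, read 10.22 and 10.11 in the cKO-labelled arrays and 10.18 and 10.08 in the WT-labelled arrays. Dnajc13, an endosomal DnaJ protein, read 7.93 and 7.68 in the cKO-labelled arrays and 7.73 and 7.73 in the WT-labelled arrays. Syt2, which encodes a calcium sensor of synaptic vesicle fusion, read 8.13 and 7.61 in the cKO-labelled arrays against 6.34 and 6.63 in the WT-labelled arrays, a difference of 1.39 (SE 0.21) beside 0.07, 0.03 and 0.08 for Dnajc5, Dnajc6 and Dnajc13.

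The BAG proteins release clients from HSP70. Of the 6, 4 were apart and higher in the cKO-labelled arrays (Bag2, Bag3, Bag5 and Bag6), with gaps of 0.0013 to 0.02, where 12.4% of all probe sets were apart and higher. Bag5 read 6.59 and 6.55 in the cKO-labelled arrays and 6.55 and 6.31 in the WT-labelled arrays, so that 3 of the 4 arrays were alike. Bag1 and Bag4 averaged lower. Among the relatives caught by name, Hspbp1 read 8.37 and 8.38 in the cKO-labelled arrays and 8.42 and 8.39 in the WT-labelled arrays, and had the smallest range of the 93 genes. Hspbap1 read 5.90 and 5.42 in the cKO-labelled arrays and 5.61 and 5.32 in the WT-labelled arrays, with the labels overlapping.

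**Figure D4:**
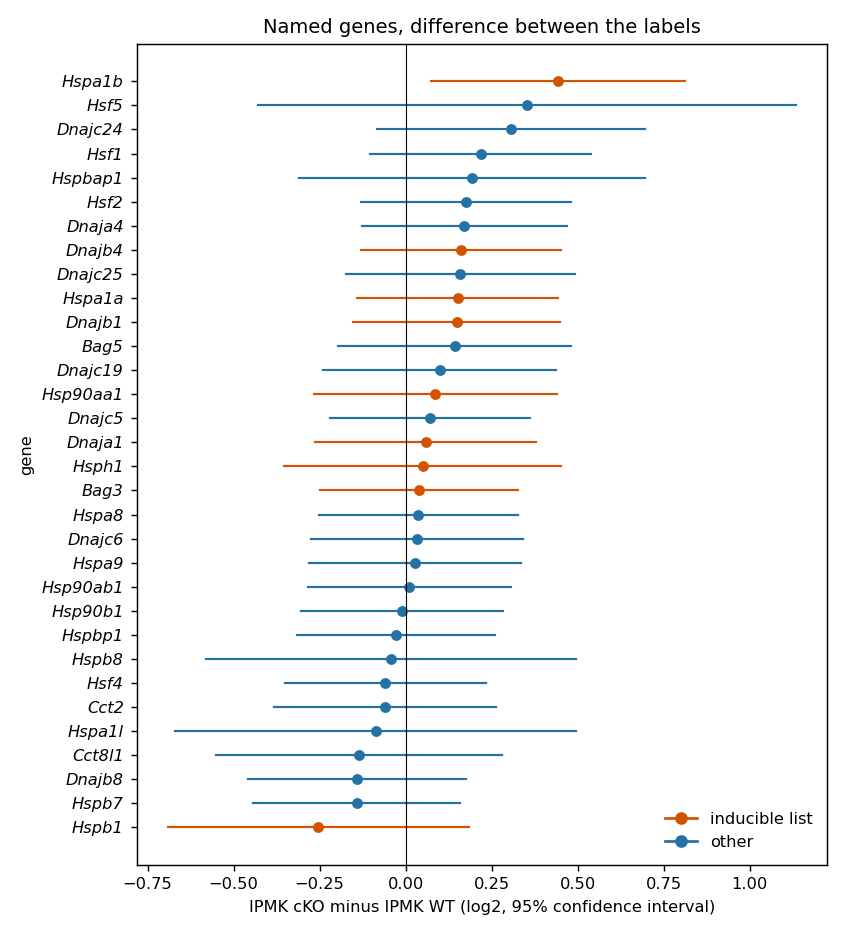
Log2 difference, cKO-labelled arrays minus WT-labelled arrays, of the named genes with 95% confidence intervals from limma, inducible genes in orange. The interval of Hspa1b (0.07 to 0.81) is the only one of these that does not include 0.

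Other genes of the pathway lay outside the name pattern. Of 14 co-chaperones of HSP90 and HSP70, 10 averaged higher and 4 lower (median difference 0.02), with 0 at an unadjusted p under 0.05 in limma, beside 2.86% of all probe sets. Of the 14, 5 were apart and higher and 3 apart and lower, beside 12.4% and 14.8% of all probe sets. Stip1 (HOP), which bridges HSP70 and HSP90, read 8.80 and 8.76 in the cKO-labelled arrays against 8.67 and 8.65 in the WT-labelled arrays. Ptges3 (p23), which closes the HSP90 cycle, had the largest difference of the list and ran the other way, with 7.28 and 7.30 in the cKO-labelled arrays against 7.56 and 7.50 in the WT-labelled arrays (difference -0.24, SE 0.12, unadjusted p = 0.0846 in limma). Of 11 known HSF1 targets outside the pattern, 9 averaged higher and 2 lower (median 0.06), with 3 apart and higher and 1 apart and lower, beside the same 12.4% and 14.8%. This list shares Stip1, Chordc1, Ahsa1 and Fkbp4 with the co-chaperones, so the counts are not separate. Cryab, a small heat shock protein of glia and a neighbour of Hspb2, read 8.95 and 9.41 in the cKO-labelled arrays against 8.92 and 9.31 in the WT-labelled arrays, with the same 2 arrays high as for the astrocyte markers. Of 18 genes of ER folding and the unfolded protein response, 11 averaged higher and 7 lower (median 0.02). Xbp1, a transcription factor of that response, read 8.63 and 8.63 in the cKO-labelled arrays against 8.35 and 8.49 in the WT-labelled arrays, with an unadjusted p of 0.137 in limma.

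The members were as a group somewhat steadier than the array at large. Their median range over the 4 arrays was 0.23, where all probe sets had 0.31, beside a median RMA value of 7.28, where all probe sets had 5.13, and the part of that higher value in the range was not tested. Of the 93, 4 members had a mean under 4 (Hsf3, Dnajb3, Dnajb7 and Cct8l1). The highest RMA values were those of Hspa8, Hsp90b1, Dnajc6, Hspa9 and Hsp90ab1; values of different probe sets also depend on their probes, and no order of transcript abundance was drawn from them.

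**Figure D5:**
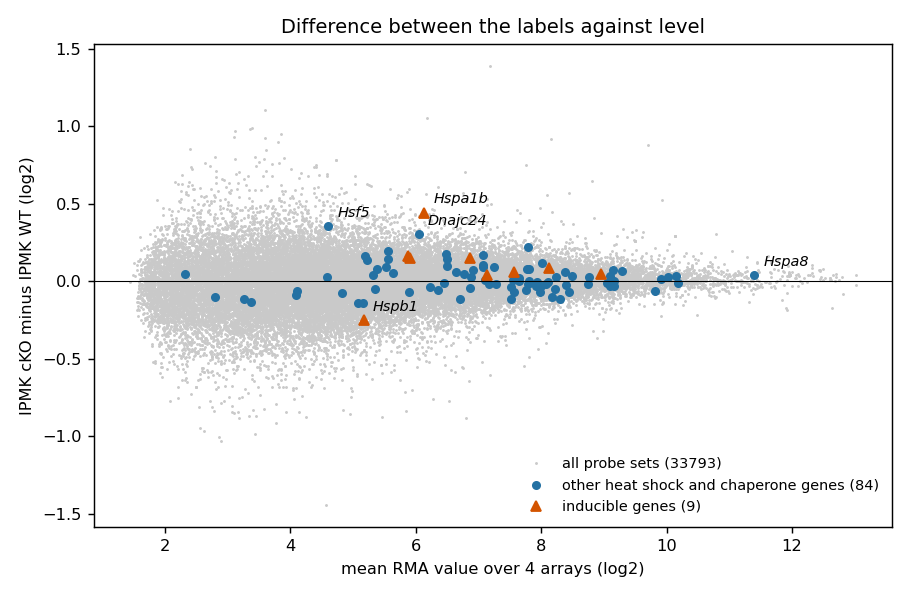
Log2 difference, cKO-labelled arrays minus WT-labelled arrays, against the mean RMA value over the 4 arrays (log2), for all 33793 probe sets (grey), the 84 other heat shock and chaperone genes (blue) and the 9 inducible genes (orange triangles). The members lie within the cloud of all probe sets, between -0.25 (Hspb1) and 0.44 (Hspa1b).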

How the data were processed

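RNA was hybridised to Affymetrix Mouse Gene 2.0 ST arrays (2 labelled IPMK cKO, 2 labelled IPMK WT). The authors summarised the scans with RMA in Affymetrix Expression Console, and the deposited values are log2 values, background-subtracted and quantile-normalized, which hides any difference in overall signal. The deposited table also holds 4 repeated value columns and the authors' own comparison (folds, LPE statistics, adjusted p-values, means and SDs); these were not used.

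Differences were fitted with limma 3.58.1 (lmFit, eBayes; R 4.3.3) over all 33793 probe sets, without a block, with Benjamini-Hochberg adjustment; the self-made scripts were tested on simulated data. The LPE test of the methods, rewritten here, was an alternative, as were the test of averages, an intensity trend, a robust prior, a replicate block, other centring and normalization, filters on dim probe sets, the other deposited table, and leaving out each array.

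Members and gene lists were chosen with earlier results of these data known. Named were all inducible genes, members at an unadjusted p under 0.05, the 5 largest differences each way among members of mean 4 or more whose labels did not overlap, the 5 highest means, the 5 widest ranges, and the lowest p of each list. Genes given beyond this rule (such as Hspe1, Hspd1, Hspb6, Hspa5, Hspa12a, Hspa4l, Dnajb9, Dnajc3, Dnajc13, Stip1, Ptges3, Xbp1, Cryab, Fos) were chosen after their values were seen. All 93 members matched RefSeq by symbol. Figures used matplotlib 3.10.9 under Python 3.11.15.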

Additional observations from a re-analysis of the deposited data

How the results depend on the processing

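No member passed an adjusted p under 0.05 under any of the 16 alternatives run. Of 501 differences of the 32 named members under these alternatives, 477 kept their sign and 24, in 13 genes, did not. At an unadjusted p under 0.05 (966 probe sets, 1 member), counts of probe sets were 541 and 123 with filters at mean log2 values of 4 and 6, 386 by LPE and 795 to 1539 with 1 array left out; LPE passed 2 probe sets after adjustment and 0 members before it, and leaving out 1 array gave 1 to 2 members. With a replicate block limma gave 1502 probe sets, 1 member (Hspa1b) and 0 after adjustment; differences of replicates 1 and 2 correlated across probe sets between labels at r = 0.244, but the labels do not say that a number marks a shared litter, although animal numbers are close within each. With 1 array left out, 54 to 63 members had labels that did not overlap, since 1 array is more easily apart. The median member difference of 0.01 was 0.0319 with median centring and 0.0059 to 0.0354 with 1 array left out, and -0.0054 after renewed quantile normalization. Inducible minus constitutive, 0.13, was 0.11 with a filter at a mean of 6 and, both chosen after seeing the data, 0.10 with means in place of medians and 0.13 without Hspb1; leaving out 1 array gave 0.0746 to 0.1366. The causes were not tested. The 2 arrays a label limit what can be seen.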
